A study of Mus musculus with 12 samples.

Results

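Paneth cell genes are described here by the histone H3 modifications called over them in mouse small-intestinal crypts and villi. The 7 genes, Lyz1, Lyz2, Mmp7, Ang4, Itln1, Defa24 and Defa17, were chosen by name, out of 21938 protein-coding genes of the GENCODE M21 annotation of GRCm38, and the rule uses no measured value. Earlier results of these data were known when the genes were chosen. All but Lyz2 are known as products of the Paneth cell, and Lyz2 is known mainly as the lysozyme of myeloid cells. For each gene, every called peak that overlapped the gene body or the 5 kb on either side by at least 1 bp was taken. The measurements were ChIP-Rx, which is ChIP-seq with a known share of chromatin from another species added, here from Drosophila S2 cells. Crypts and villi each gave 1 library for H3K4me3, H3K4me1, H3K27me3 and H3K9me3, so that 8 peak lists were read. Villi were scraped from the opened intestine with glass coverslips, and crypts were then released from the remaining tissue with EDTA, so that each library is a mixture of cell types and Paneth cells were not sorted. The labels give no strain, age, sex or treatment and no number of animals per library. With 1 library per compartment and modification, no difference between crypts and villi has a replicate check, and no test was made.

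Paneth cells lie at the base of the small-intestinal crypt, between the stem cells, and release granules of antimicrobial proteins into the crypt lumen. They also present signals of the stem cell niche such as Wnt3, Egf and Dll4, and their maturation depends on Wnt signalling and on the transcription factor Sox9. H3K4me3 marks start sites of active and of bivalent genes, H3K4me1 marks enhancers and the flanks of start sites, H3K27me3 is laid down by Polycomb complexes at silent genes, and H3K9me3 marks heterochromatin.

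Promoter sequences are shown for the lysozyme pair, of which Lyz1 had a called peak at its start site and Lyz2 had none, and for Itln1 and Mmp7, which differed in the same way. They were taken from the RefSeq promoter table of GRCm38.p6, which matched 5 of the 7 members by symbol, Lyz1, Lyz2, Mmp7, Ang4 and Itln1. Each sequence is the 250 bases that end just before the RefSeq start site, on the strand of the gene. In the lysozyme pair, capitals mark the longest stretch that both promoters share. The Lyz1 promoter, chr10:117292869-117293118 on the reverse strand, lay under a called H3K4me1 peak in both compartments, and the Lyz2 promoter, chr10:117282273-117282522 on the reverse strand, lay under none.
Lyz1: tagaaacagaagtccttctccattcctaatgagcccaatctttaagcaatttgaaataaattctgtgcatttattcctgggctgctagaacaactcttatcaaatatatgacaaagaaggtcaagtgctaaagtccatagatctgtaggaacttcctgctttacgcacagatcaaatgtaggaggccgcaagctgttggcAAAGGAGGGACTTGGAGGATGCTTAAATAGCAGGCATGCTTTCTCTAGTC
Lyz2: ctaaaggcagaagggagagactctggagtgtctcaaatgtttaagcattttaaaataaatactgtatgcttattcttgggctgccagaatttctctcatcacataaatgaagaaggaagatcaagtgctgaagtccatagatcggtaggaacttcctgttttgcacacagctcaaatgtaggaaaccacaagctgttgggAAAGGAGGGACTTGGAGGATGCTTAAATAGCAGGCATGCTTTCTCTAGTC
In the next pair, capitals mark matches to TATAAA or TTTATNG on either strand. The Itln1 promoter, chr1:171535295-171535544 on the reverse strand, lay under an H3K4me1 peak in both compartments. The Mmp7 promoter, chr9:7691840-7692089 on the forward strand, lay under none.
Itln1: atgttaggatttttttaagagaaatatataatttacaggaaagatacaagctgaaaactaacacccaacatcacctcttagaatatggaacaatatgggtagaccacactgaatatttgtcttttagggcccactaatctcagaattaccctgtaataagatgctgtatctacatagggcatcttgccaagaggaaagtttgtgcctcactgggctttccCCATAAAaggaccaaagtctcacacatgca
Mmp7: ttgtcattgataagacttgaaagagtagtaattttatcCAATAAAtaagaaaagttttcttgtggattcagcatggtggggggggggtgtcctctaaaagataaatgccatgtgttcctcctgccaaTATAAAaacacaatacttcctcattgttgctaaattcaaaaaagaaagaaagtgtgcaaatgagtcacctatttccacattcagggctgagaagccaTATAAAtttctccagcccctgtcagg

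Few peaks were called over the Paneth cell genes. For H3K4me3, 0 of the 7 genes had a peak in crypts and 1 of 7, Ang4, had one in villi, whereas 63.3% of all protein-coding genes had one in crypts and 63.6% in villi. H3K4me1 was called at 2 of 7 genes, Lyz1 and Itln1, in each compartment, against 69.2% of all protein-coding genes in crypts and 68.9% in villi. No member had an H3K27me3 peak in either compartment, where 17.9% of all genes had one in crypts and 23.0% had one in villi. No member had an H3K9me3 peak either, which 3.91% of all genes had in crypts and 3.12% had in villi. Lyz2, Mmp7, Defa24 and Defa17 had no peak in any of the 8 lists, a pattern shared by 4919 protein-coding genes (22.4%). The median share of the gene window covered by peaks was 0% over the members in every list. Over all protein-coding genes this median was 2.68% for H3K4me3 in crypts, 2.62% in villi, 5.15% for H3K4me1 in crypts and 4.95% in villi, and 0% for H3K27me3 and H3K9me3. Short genes carry fewer peaks. Among the 10881 protein-coding genes no longer than Itln1, the longest member at 17173 bp, 51.6% had an H3K4me3 peak in crypts and 57.8% an H3K4me1 peak, and 33.8% had no peak in any list. The other members are 9713 bp long or shorter, so these shares are not matched to their length. Paneth cells are 1 of several cell types of the crypt libraries, so that few Paneth cells among the crypt cells and little mark per Paneth cell cannot be told apart.

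**Figure D1:**
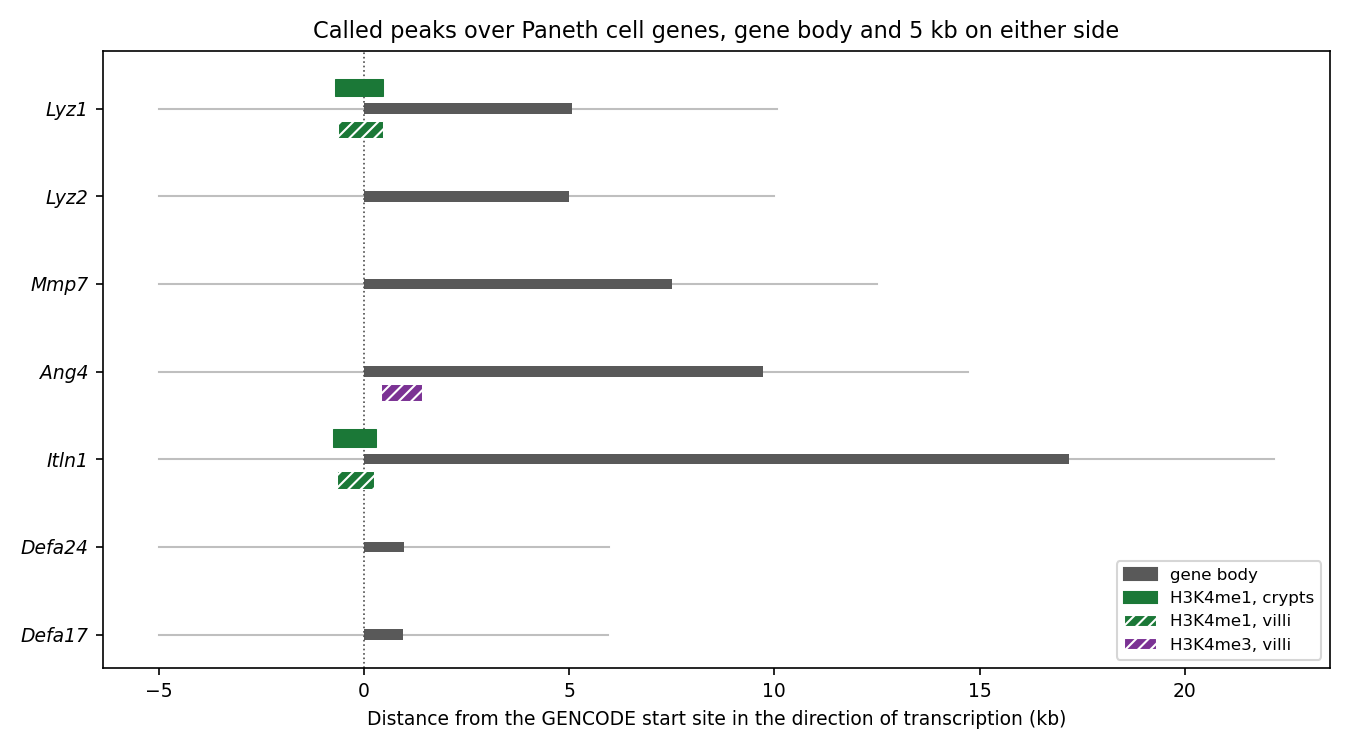
Peaks called over the 7 Paneth cell genes, each drawn from its start site in the direction of transcription in kb, with the gene body as a dark bar and the 5 kb on either side as a thin line. Filled blocks are crypts peaks and hatched blocks villi peaks, and 5 peaks lie over 3 genes, with H3K4me1 across the start sites of Lyz1 and Itln1 in both compartments and H3K4me3 inside Ang4 in villi.

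The lysozyme genes split. Lyz1 encodes the lysozyme of Paneth cell granules and Lyz2 the lysozyme of macrophages and other myeloid cells, and both enzymes cleave bacterial peptidoglycan. They lie 5475 bp apart on the reverse strand of chromosome 10, Lyz1 from 117287797 to 117292868 and Lyz2 from 117277331 to 117282321. Over Lyz1, H3K4me1 was called in crypts from 117292404 to 117293583, a peak of 1180 bp that ran from 715 bases upstream of the start site to 464 bases downstream of it and covered exon 1. In villi the H3K4me1 peak over Lyz1 ran from 117292410 to 117293492, 1083 bp wide, and lay wholly within the crypts peak, of which it covered 91.8%. The scores, taken as −log10 p-values, were 16.9 in crypts and 14.1 in villi, below the list medians of 19.7 and 17.7. By score the peak was number 33293 of 54642 in crypts and number 38157 of 55341 in villi. The log2 ratio of the widths, villi over crypts, was -0.12, and over the 38608 H3K4me1 pairs of 1 crypts and 1 villi peak its quartiles were -0.27 and 0.25, so that the Lyz1 pair lay between them.

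Lyz2 had no peak of its own. The nearest to its gene body was the H3K4me1 peak over Lyz1, 10083 bp away in crypts and 10089 bp in villi. The numbers that the authors' peak names carry rose along every chromosome in all 8 lists. A number missing between neighbouring peaks was therefore taken as a call left out of the list, which could not be checked. No H3K4me3 number was missing between the peaks that flank Lyz1 and Lyz2 in either compartment, and no H3K4me1 number was missing between those that flank the Lyz2 window. For H3K27me3, 3 numbers were missing around Lyz2 in crypts and 1 in villi, and for H3K9me3 1 was missing in crypts. The nearest H3K4me3 peak to the pair lay 52247 bp from Lyz2 in crypts and 52257 bp in villi. An H3K9me3 peak of 1541 bp in crypts, from 117298819 to 117300359, lay just outside the limit, 951 bp from the end of the Lyz1 window, and villi had no H3K9me3 peak within 147018 bp of Lyz1. Myeloid markers, fixed as a list, had H3K4me1 peaks at 6 of 6 genes and H3K4me3 peaks at 4 of 6 genes in crypts and in villi alike. The 4 were Itgam, Cd68, Cd14 and Spi1, and Csf1r and Adgre1 had no H3K4me3 peak. Whether peaks in these windows belong to neighbouring genes was not checked. Of all protein-coding genes, 69.2% in crypts and 68.9% in villi had an H3K4me1 peak, and the H3K4me3 count is close to the shares for that modification, 63.3% and 63.6%. Lyz2 had neither modification called.

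The promoters of the lysozyme pair are near copies at their proximal ends. Over the printed 250 bases, 200 of 252 aligned columns held the same base (79.4%), with 48 mismatches and 4 gap columns. The stretch in capitals, the last 50 bases before each RefSeq start site, was the same in both. The RefSeq start site of Lyz2, at 117282272, lay inside the GENCODE gene, whose start is at 117282321, whereas for Lyz1 both sources gave 117292868. Of the 50-base words of the crypts H3K4me1 peak over Lyz1, 12.2% occurred elsewhere in the genome, and of its 100-base words 0%.

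Mmp7, on chromosome 9 from 7692090 to 7699585 on the forward strand, had no peak in any list. It encodes matrilysin, the metalloproteinase that cuts mouse pro-alpha-defensins to their active form. A stretch of 111926 bp around it, from 7651326 to 7763251, held no peak of the 8 lists and no other whole protein-coding gene. The nearest peak was H3K4me1 in villi, 1049 bp wide with a score of 18.7, 40765 bp away. For H3K4me3 the nearest peaks lay 63921 bp away in crypts and 63791 bp in villi, and no H3K4me3 number was missing between the peaks that flank Mmp7. For H3K4me1, 4 numbers were missing between the flanking peaks in crypts and 1 in villi, and for H3K27me3 2 were missing in crypts, with no position given for these calls. The nearest H3K27me3 peak was 1199351 bp away in crypts and 65207 bp in villi. The Mmp7 gene body was nearly free of repeated sequence, with 0.094% of its 50-base words found elsewhere in the genome. TATAAA matched at 26 to 21 bases and again at 123 to 118 bases before its start site, as printed above.

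Ang4 was the member with H3K4me3, and it had it in villi. It encodes angiogenin 4, a ribonuclease with bactericidal activity, and lies on chromosome 14 from 51763878 to 51773590 on the reverse strand. The villi peak ran from 51772181 to 51773162 and was 982 bp wide. It began 428 bases and ended 1409 bases downstream of the start site, inside the intron between the 2 exons, and touched neither exon. Its score of 11.7 was number 16265 of 16977 in the villi H3K4me3 list, with 3.14% of peaks scoring lower, and 27.6% of peaks were narrower. In crypts no H3K4me3 peak lay within 110289 bp of Ang4, and 1 H3K4me3 number was missing over the stretch between the flanking peaks at 51097796 and 51883879, with no position given for it. No H3K4me1 peak lay within 110243 bp of the gene in crypts or 111733 bp in villi. H3K27me3 peaks lay 22386 bp away in crypts and 22379 bp away in villi. Between the flanking peaks of Ang4, 3 H3K4me1 numbers were missing in crypts and 1 in villi. For H3K27me3 4 were missing in villi, and for H3K9me3 2 in crypts, with no position given for these. Within the villi H3K4me3 peak, 7.82% of the 50-base words and 0% of the 100-base words occurred elsewhere.

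The pattern of Ang4, H3K4me3 in villi and no other peak, was found at 26 of the 21938 protein-coding genes (0.119%). Of the lists fixed for other cell types, the lymphocyte markers held 3 of these 26 genes, Cd8a, Gzma and Ptprc, and no other such list held any. The lymphocyte markers had an H3K4me3 peak at 5 of 6 genes in villi, all but Gzmb, and at 1 of 6 in crypts, Itgae, beside 63.6% and 63.3% of all protein-coding genes. The genes whose windows were covered most like that of Ang4, by the sum of differences in percent covered over the 8 lists, were Cd8a, Il21r and Rgs1, with 5.26%, 5.61% and 4.12% of their windows under villi H3K4me3 against 4.98% for Ang4. The part of lymphocytes in the Ang4 peak was not tested.

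Itln1 resembled Lyz1. It encodes intelectin 1, a lectin that binds microbial glycans, and lies on chromosome 1 from 171518122 to 171535294 on the reverse strand. H3K4me1 was called in crypts from 171534999 to 171536055, a peak of 1057 bp from 761 bases upstream to 295 bases downstream of the start site. The villi peak, 907 bp wide from 171535050 to 171535956, lay again wholly within the crypts peak, of which it covered 85.8%. The log2 width ratio was -0.22, within the quartiles given for all pairs. The score was 11.3 in crypts, where 10.2% of peaks scored lower, and 19.6 in villi, where 58.0% scored lower. Scores depend on the depth of a library and are not scaled by the spike-in, so that they are not compared between the lists. The nearest H3K4me3 peaks lay 13275 bp from the gene in crypts and 13288 bp in villi, and 1 H3K4me3 number was missing between the flanking peaks in each compartment. H3K4me1 in both compartments and no other peak was the pattern of 687 protein-coding genes (3.13%), Lyz1 and Itln1 among them. The genes covered most like Itln1 were Txk, Klrc1 and Tex35, and those most like Lyz1 were Ecm1, Olfr462 and Majin.

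Defa24 and Defa17 had no peak in any list, and neither did any other gene with a Defa symbol. The alpha-defensins, or cryptdins, are the pore-forming peptides of the mouse Paneth cell granule. The 22 annotated protein-coding Defa genes lie on chromosome 8 from 21025545 to 21735471, a span of 709927 bp that ends with Defa24. Defa24 runs from 21734494 to 21735471 and Defa17 from 21655780 to 21656735, both on the forward strand with 2 exons each. Over the whole span the number of peaks was 0 in each of the 8 lists. The peak-free stretch that holds it measured 1193363 bp and 33 protein-coding genes, and 231 of 70063 such stretches in the genome were longer. No H3K4me3 number was missing between the flanking peaks, in crypts or in villi. For H3K4me1, 1 number was missing in crypts and 4 in villi, and for both H3K27me3 and H3K9me3 1 in crypts and 2 in villi, over stretches longer than the span itself.

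Beyond Defa24 the picture changed within a short distance. H3K27me3 began at 21751716 in crypts, 16245 bp past the end of the gene, and at 21751865 in villi, 16394 bp past it. In the 100 kb after Defa24, which hold the beta-defensin genes Defb1 and Defb50, crypts had 8 H3K27me3 peaks over 14844 bp and villi 9 over 22527 bp. Over the whole genome the villi H3K27me3 list was the longer, with 13797 peaks over 35.6 Mb against 7611 over 20.3 Mb in crypts. H3K4me1 was called there in crypts, at 21756031 to 21757331 and at 21803779 to 21805326, and not in villi. No H3K4me3 or H3K9me3 peak lay in these 100 kb.

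**Figure D2:**
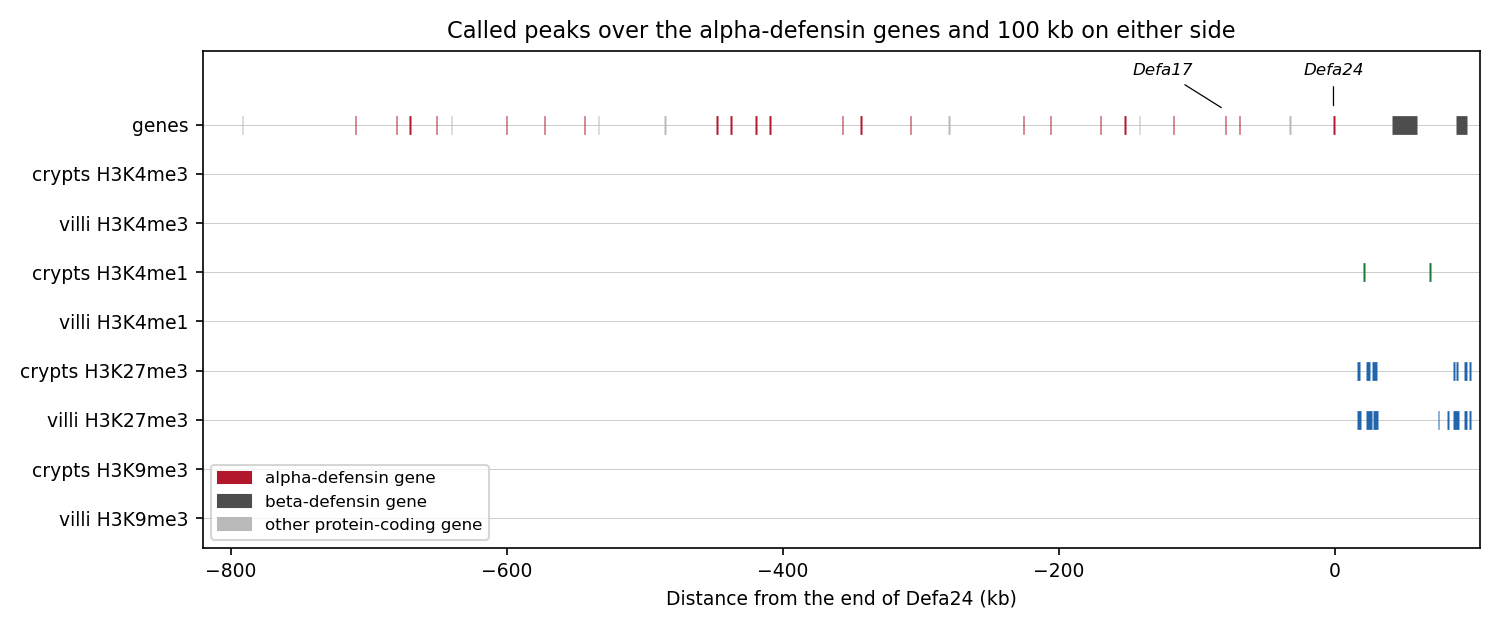
Alpha-defensin genes and all called peaks within 100 kb of them, by distance from the end of Defa24 in kb. Red ticks are the 22 alpha-defensin genes with a Defa symbol, over which no list has a peak. The H3K27me3 blocks of crypts and villi begin 16245 and 16394 bp beyond Defa24.

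Sequence that recurs in the genome was counted beside these values, since the aligner reported 1 place for each read pair. Of the 50-base words of the Defa17 window, 86.6% occurred elsewhere, and of its 100-base words 69.9%. Over the whole alpha-defensin span the shares were 80.0% and 60.7%. Defa24 differed from Defa17, with 38.1% of 50-base and 14.1% of 100-base words repeated over its window and 1.58% of 100-base words within 1 kb of its start site, against 80.5% around the start of Defa17. The window shares of 100-base words were 4.08% for Lyz1, 6.04% for Lyz2, 4.16% for Mmp7, 18.4% for Itln1 and 19.3% for Ang4. No window held a gap in the assembly. The window shares of 50-base words were 17.1% for Mmp7 and 14.7% for Lyz2. The part of repeated sequence in the missing peaks was not tested.

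Other genes listed for Paneth cells were read in the same windows, secreted products but for Nupr1, which encodes a nuclear protein. Of 12 listed, 11 were annotated as protein-coding and 4 of these, Mptx1, Mptx2, Clps and Habp2, had no peak in any list, against 4 of 7 members. H3K4me3 was called at 3 of 11 in crypts and 2 of 11 in villi, and H3K4me1 at 6 and 5, Nupr1 being 1 of these in each compartment. Over all protein-coding genes the shares were 63.3% and 63.6% for H3K4me3 and 69.2% and 68.9% for H3K4me1, and 22.4% had no peak in any list, or 33.8% of those no longer than the longest member. Habp2 and Pnliprp2, of 33686 and 17816 bp, are longer than that member, so the 33.8% does not cover them. Among the Reg genes, which encode secreted C-type lectins of intestinal defence, Reg3g had an H3K4me3 peak of 2053 bp in crypts, from 218 to 2270 bases downstream of its start site with a score of 10.2, and none in villi. H3K4me1 peaks covered 40.6% of the Reg3g window in crypts and 18.4% in villi. Reg3b had 3 H3K4me1 peaks in crypts, covering 54.9% of its window, and none in villi. Reg3a was covered by H3K4me1 over 51.0% in crypts and 48.3% in villi. Reg3a and Reg3b lie near each other and share 1 of these crypts peaks, from 78373930 to 78376094. In the whole genome the H3K4me1 lists held 54642 peaks in crypts and 55341 in villi, and the H3K4me3 lists 16489 and 16977. The paper reported weaker H3K4me1 and H3K4me3 signal in villi at their sites in general, which it ascribed to cleavage of the H3 tail. The part of that cleavage in the calls given here was not tested. Reg4 had neither H3K4me3 nor H3K4me1 and was covered by H3K27me3 over 12.3% of its window in crypts and 65.6% in villi. Guca2b, which encodes uroguanylin, had an H3K4me3 peak over its start site in both compartments, of 2990 bp in crypts against 4029 bp in villi.

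Niche ligands and regulators carried H3K4me3 at nearly every gene. All 4 ligands, Wnt3, Egf, Tgfa and Dll4, had H3K4me3 in both compartments, where 63.3% of all protein-coding genes had it in crypts and 63.6% in villi. Over the start site of Wnt3 the H3K4me3 peak measured 2150 bp in crypts against 839 bp in villi, and the H3K27me3 peak there 4437 bp against 6570 bp, beside the larger length that H3K27me3 covers in the whole villi list. Egf had an H3K4me3 peak of 575 bp, 342 bases downstream of its start site, in crypts and none there in villi, although a peak deeper in the gene, 29667 bases from the start site in crypts and 29572 bases in villi, was called in both. Of 10 regulators of Paneth cell differentiation, 10 had H3K4me3 in crypts and 9 in villi, the exception being Bhlha15, which encodes the secretory cell factor Mist1. At Sox9 the H3K4me3 peak over the start site measured 5480 bp in crypts against 4987 bp in villi. Atoh1, the factor that sets the secretory lineage, Gfi1, which acts downstream of it, and Spdef, a factor of goblet and Paneth cell maturation, also had H3K27me3 in both compartments, which makes 3 of 10 regulators beside 17.9% of all protein-coding genes in crypts and 23.0% in villi. At Spdef the peaks of the compartments did not overlap, with 752 bp from 27717475 to 27718226 in crypts and 1235 bp from 27724693 to 27725927 in villi, which covered 3.06% and 5.02% of its window. Gfi1 was covered by H3K27me3 over 87.8% of its window in crypts and 86.9% in villi, and its H3K4me3 peak measured 1155 bp and lay clear of the start site in crypts, whereas in villi it measured 4007 bp and covered the start site. The lists were chosen by function and not drawn at random, and no test was made between them and the members.

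**Figure D3:**
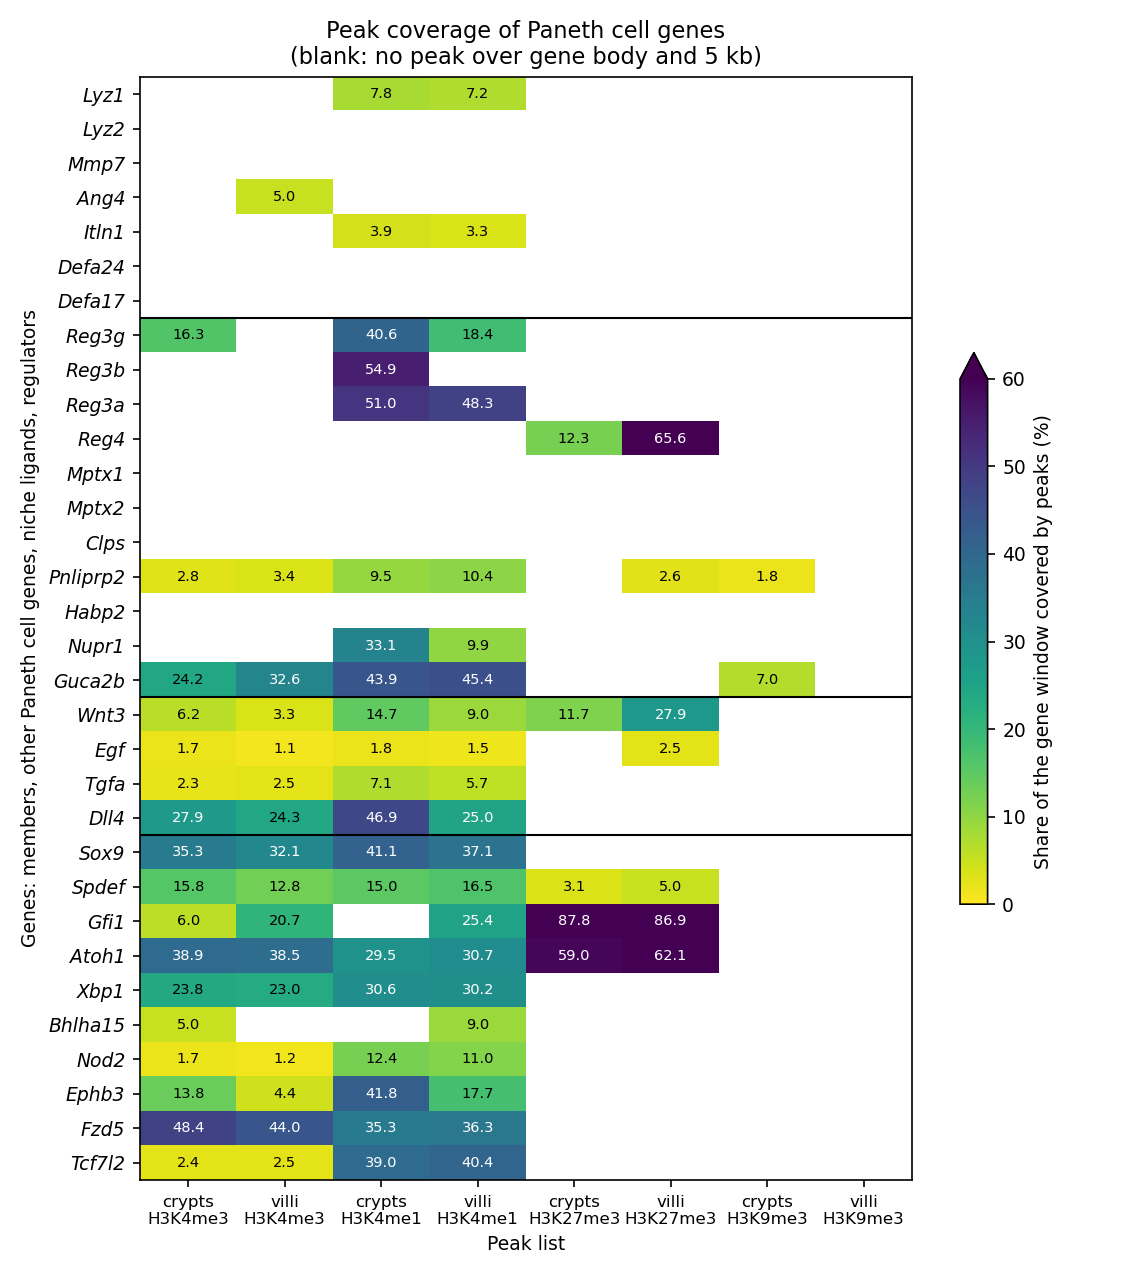
Share of each gene window (gene body and 5 kb on either side) covered by called peaks in percent, for the 7 members, 11 further genes listed for Paneth cells, 4 niche ligands and 10 regulators in the 8 lists. A blank cell is a gene with no peak. The members have 5 filled cells, all below 8%, and the regulators have H3K4me3 in every cell but that of Bhlha15 in villi.

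Markers of other cell types were read in the same way. H3K4me3 was called at 6 of 6 crypt stem and cycling markers in crypts and 5 of 6 in villi, at 5 and 4 of 6 goblet markers, and at 7 of 7 enterocyte markers in both compartments. Enteroendocrine markers had it at 1 of 4 genes and tuft markers at 2 of 3 in crypts and 1 of 3 in villi, and mesenchyme and smooth muscle markers at 2 of 5 in both. These counts stand beside 63.3% of all protein-coding genes with an H3K4me3 peak in crypts and 63.6% in villi, and the goblet count in villi and the tuft count in crypts lie near these shares. Gene length differed between the lists, with goblet markers from 4341 bp (Tff3) to 64354 bp (Muc2) and Paneth cell genes from 956 bp (Defa17) to 17173 bp (Itln1), and its part in the counts was not tested. The 8 lists together held between 2089 and 55341 peaks each, and the read depth behind them is unknown. Of the numbers in the crypts peak names, 1355 of 17844 were missing for H3K4me3 and 8600 of 16211 for H3K27me3. A missing peak can thus be a signal not called at this depth or a call left out of the list. It does not show a lack of the modification.

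**Figure D4:**
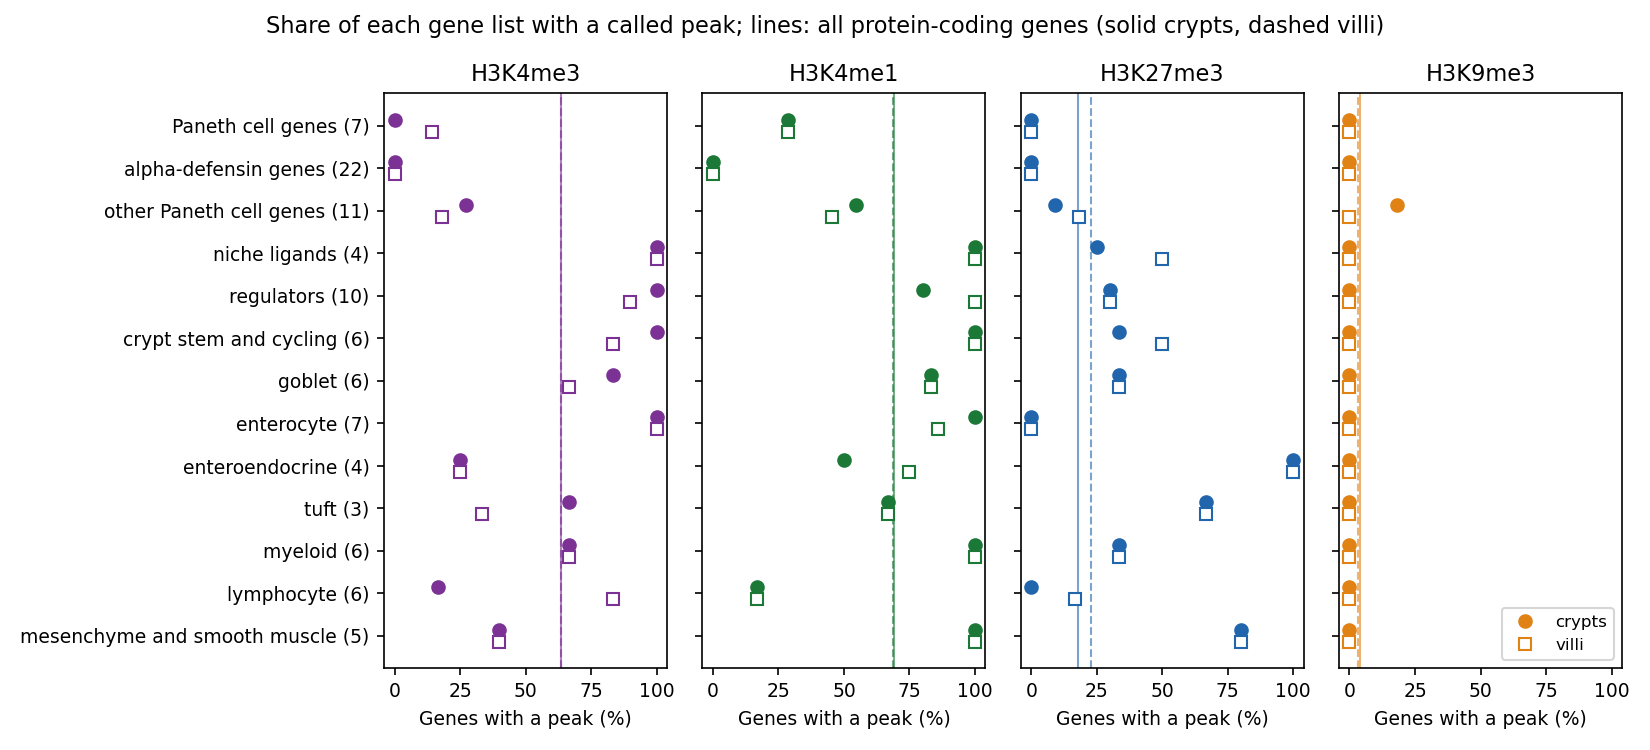
Share of genes with a called peak in percent for each gene list, with the number of genes in parentheses, in crypts (filled circles) and villi (open squares), and for all protein-coding genes (solid line crypts, dashed line villi). The Paneth cell genes and the 22 alpha-defensin genes with a Defa symbol lie left of the line for H3K4me3 and H3K4me1. Niche ligands, regulators and enterocyte markers lie right of it for both.

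The 5 member promoters in the RefSeq table were poor in CpG dinucleotides, the sequence at which H3K4me3 is generally richest. Over the 300 bases from 250 before to 50 after the start site, CpG numbered 0 in Itln1, 1 in Lyz2, 1 in Mmp7, 2 in Lyz1 and 5 in Ang4, and the median over 16522 promoters of protein-coding genes was 14. The GC content was 39.0% in Mmp7, 40.3% in Itln1, 44.3% in Lyz1 and in Lyz2 and 48.3% in Ang4, against a median of 57.0%. With the limit set at the 5 CpG of Ang4, after the values were seen, 5123 promoters (31.0%) had as few or fewer. Of those genes 22.7% had an H3K4me3 peak in crypts and 23.0% in villi, whereas 84.0% and 84.2% of the genes with more CpG had one. An H3K4me1 peak was found at 34.0% of the former in crypts and 33.6% in villi, against 86.7% and 86.5% of the latter. All 5 members fall among the genes of low CpG by the choice of the limit. Of these 5, 0 had H3K4me3 in crypts and 1 in villi, and 2 had H3K4me1 in each compartment. They are too few to be placed by these shares, and the part of CpG content was not tested.

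**Figure D5:**
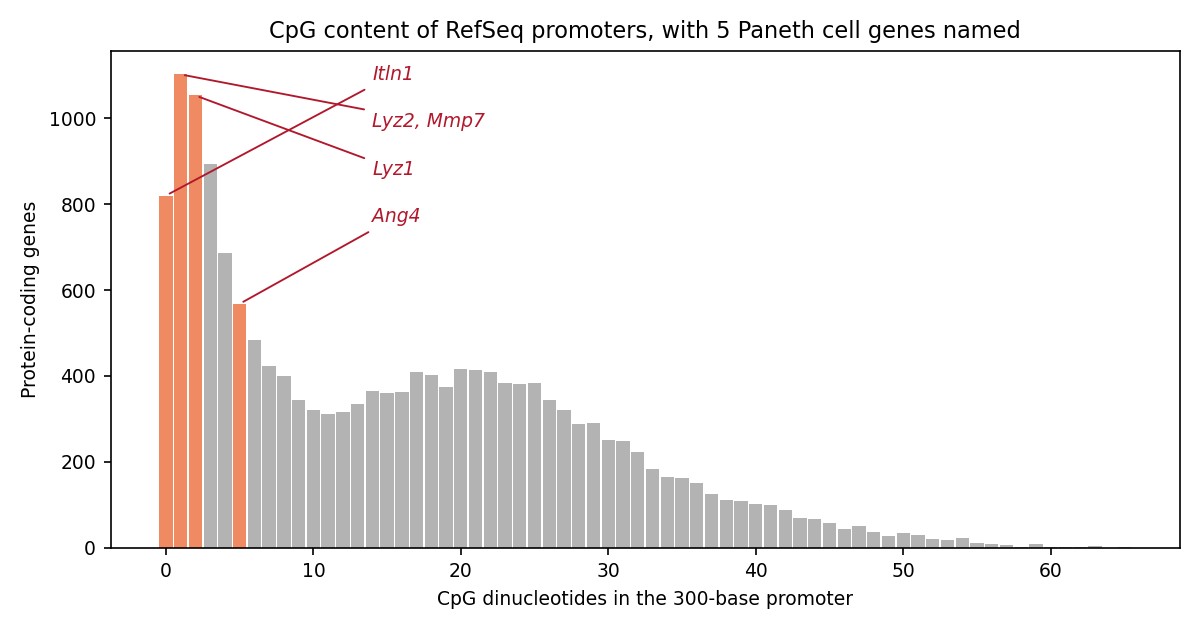
Number of protein-coding genes by the number of CpG dinucleotides in the 300-base RefSeq promoter, with the bars that hold the 5 members coloured and named. The members lie between 0 and 5 CpG, below the median of 14.

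Motifs were counted in the same 300 bases on both strands. TATAAA, the letters of the TATA box, was in 12.8% of all promoters and in 1 of the 5 members, Mmp7. TTTATNG, a core recognised by the intestinal factor Cdx2, was in 10.0% of promoters and in 2 of 5 members, Itln1 at 30 to 24 bases and Mmp7 at 212 to 206 bases before the start site. CTTTGAT and CTTTGAA, the letters bound by the Wnt effectors of the TCF family, were in 3.18% and 4.69% of promoters, and among the members CTTTGAT was found in Mmp7, 4 to 10 bases after the start site, and CTTTGAA in none. A match of letters is a description and not a site.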

How the data were processed

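ChIP-Rx libraries of crypts and villi, with 5% of Drosophila chromatin added, were mapped by the authors to mm10 with bowtie 1.1.2, which reported 1 place per read pair, and peaks were called per library with MACS2 2.1.1 at a p-value of 1e-10. The deposited score was read as a −log10 p-value, since none lies below 10, although it could be a q-value. The lists hold no counts, so depth is unknown, and the calls are not scaled by the spike-in. Inputs and signal tracks were not used here.

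The members and gene lists were chosen with earlier results of these data known. Named are the 7 members, the genes of fixed lists and, for members with a peak, the 3 genes with the smallest summed difference in percent of window covered over the 8 lists. Pla2g2a, listed as a secreted product, is not annotated as protein-coding and was not analysed here. Gene bodies came from GENCODE M21 on GRCm38, the build of the files. Peaks were counted at an overlap of 1 bp. Words of 50 and 100 bases were sought on both strands of 21 chromosomes. The code was tested on simulated data. Python 3.11.15, NumPy 2.4.6, pandas 2.3.3, Biopython 1.88, Numba 0.67.0 and Matplotlib 3.10.9 were used. Alternatives were the gene body alone, 10 kb on either side, the 50% of peaks with the highest scores, joining of peaks less than 1 kb apart, 50% of the peak inside the window and, chosen after seeing the data, 1 kb around start sites.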

Additional observations from a re-analysis of the deposited data

How the results depend on the processing

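The counts of members with a peak were the same in the 8 lists under the gene body alone, merging of peaks under 1 kb apart, 50% of the peak inside the window and, chosen after seeing the data, 1 kb around start sites. With 10 kb on either side, 1 member had an H3K9me3 peak in crypts, Lyz1, against 0, and 5.04% of all protein-coding genes had one. With the top 50% of each list by score, 0 members had an H3K4me1 peak in crypts, 1 had one in villi, Itln1, and 0 had an H3K4me3 peak in villi, so that 4 of the 5 member peaks were lost and the overlapping H3K4me1 pairs fell to 0. Under the same setting the shares over all protein-coding genes were 51.7% for H3K4me1 in crypts, 53.3% for H3K4me1 in villi and 46.6% for H3K4me3 in villi. No paired analysis was possible because each group holds 1 library. Positions of peaks are as called, and depth, the control used for calling and the share of Paneth cells in the crypts libraries limit what a missing peak can show.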

Other observations

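The families around 2 of the members were read in the same way. Of 6 ribonuclease genes related to Ang4, Ang2, Ang5 and Ang6 had no peak in any list, beside 22.4% of all protein-coding genes and 33.8% of those no longer than the longest member. Ang and Rnase4, which overlap on chromosome 14, shared an H3K4me3 peak over their start sites, which measured 4242 bp in crypts against 3654 bp in villi, with scores of 221 and 199 in the authors' lists. At Rnase1 an H3K4me1 peak of 10880 bp in crypts, against 8950 bp in villi, covered the start site, and H3K4me3 was not called. Ang4 was the gene among these 7 with H3K4me3 in villi and not in crypts.

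Of 7 metalloproteinase genes related to Mmp7, Mmp8, Mmp10, Mmp27, Mmp3, Mmp12 and Mmp13 had no peak in any list, as Mmp7 itself, beside the same 22.4% and 33.8%. Mmp12 and Mmp20, of 25119 and 46749 bp, are longer than the longest member, so the 33.8% does not cover them. Mmp20, which encodes enamelysin, had 1 H3K4me1 peak of 1049 bp and 1 H3K27me3 peak of 545 bp in villi and none in crypts. The H3K9me2 lists held 6 regions in crypts and 3 in villi over the whole genome. With so few regions, the 0 regions over the Paneth cell genes tell nothing about these genes.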
